A study of Mus musculus with 3 samples.

Results

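Mouse islet droplets that held much insulin RNA and much somatostatin RNA at the same time were examined in the library taken 5 weeks after Taf4 inactivation. A cell barcode was called double when *Ins2* made up 20% or more of its unique molecular identifiers (UMIs, the counted RNA molecules), *Sst* 2% or more and *Gcg* less than 5%. This rule chose 382 of 11229 barcodes, 3.40% of the library (exact 95% interval 3.07 to 3.75), out of 25524 barcodes in the whole series. The barcodes were chosen by their shares of *Ins2*, *Sst* and *Gcg*, so the levels of these 3 genes are descriptions only. The name double barcode is used here in place of double cell, because a barcode marks a droplet and the counts do not say how many cells it held. The double barcodes were set against a computed mix of 5307 single beta barcodes (*Ins2* 20% or more, *Gcg* under 3%, *Sst* under 2%) and 1213 single delta barcodes (*Sst* 5% or more, *Ins2* under 20%, *Gcg* under 5%) of the same library, and the question was which genes such a mix leaves unexplained.

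Beta cells of the islet of Langerhans make insulin, which lowers blood glucose, and mice carry a pair of insulin genes, *Ins1* and *Ins2*. Delta cells make somatostatin, a peptide that acts on neighbouring cells and restrains the secretion of insulin and glucagon. Alpha cells make glucagon from *Gcg*, PP cells make pancreatic polypeptide from *Ppy*, and delta cells are recognised besides *Sst* by *Rbp4*, a retinol carrier, and *Hhex*, a homeobox factor needed for the delta fate.

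The series compared islet cells with and without Taf4, a subunit of the general transcription factor TFIID, in beta cells. All mice were C57/Bl6 and labelled male, and islet cells were sorted only for being alive before capture with the 10X Genomics Chromium 3′ assay. The mutant (Taf4b-/-) libraries came from *Ins1*::CreERT2 mice with floxed *Taf4* alleles that received tamoxifen on 3 consecutive days at 11 to 13 weeks of age, and were taken 1 week and 5 weeks later, each from 300 islets pooled from 2 mice. The wild type library came from 300 islets of 1 mouse, labelled wild type. The study's methods give tamoxifen at the same age for animals of each genotype, whereas the label of this library states neither. The Cre driver is active in beta cells, so the design leaves *Taf4* intact in the other islet cells.

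There was 1 library per condition, so no test between conditions was possible, and genotype, animal and library cannot be told apart. All intervals are 95% intervals that cover counting error only. *Taf4* stood at 4.68 CPM (a gene's UMIs scaled to the total of the class) in single beta barcodes of wild type, 6.27 CPM at 1 week and 3.46 CPM at 5 weeks, but a 3′ count outside the deleted part checks nothing about the deletion. The wild type library held 17357 *Xist* UMIs and none of *Ddx3y*, *Uty*, *Kdm5d* or *Eif2s3y*, against its male label. The mutant libraries held 17 and 11 *Xist* UMIs and 1488 and 1349 *Ddx3y* UMIs. The 5-week library shared 33 barcodes with wild type and 5 with the 1-week library, and 1 of the double barcodes was also a wild type barcode. The same rule met 4 of 12000 wild type barcodes (median 1263.5 UMIs) and 2 of 2295 barcodes at 1 week (median 483 UMIs). From the wild type library alone the authors had removed cells with high levels of more than 1 hormone, so its count cannot be compared with the 382. At 1 week no such removal is stated, and with only 22 single delta barcodes and 1 library no comparison was made. Only the 5-week library enters what follows.

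The hormone genes lie apart in the genome (RefSeq, GRCm38.p6, the mm10 build of the files). *Ins2* lies on chromosome 7 from 142678656 to 142679726, *Ins1* on chromosome 19 from 52264297 to 52265015 and *Sst* on chromosome 16 from 23889573 to 23891342. The 250 bases before the transcript start that the RefSeq promoter table gives for *Sst* and for *Ins1* are shown. RNA of both genes was counted in every one of the 382 barcodes, and *Ins1*, unlike *Ins2*, played no part in choosing them. For *Sst* this follows from the rule, and *Ins1* RNA was also counted in 86.6% of single delta barcodes. Capitals mark the cyclic AMP response element TGACGTCA, the textbook element of the *Sst* promoter, and CATCTG, the core of an E-box, a motif that insulin promoters are known for. Both strands were searched. The *Sst* window lies inside the gene's annotated span, which reaches further upstream than this start.
Sst, chr16:23890845-23891094, minus strand: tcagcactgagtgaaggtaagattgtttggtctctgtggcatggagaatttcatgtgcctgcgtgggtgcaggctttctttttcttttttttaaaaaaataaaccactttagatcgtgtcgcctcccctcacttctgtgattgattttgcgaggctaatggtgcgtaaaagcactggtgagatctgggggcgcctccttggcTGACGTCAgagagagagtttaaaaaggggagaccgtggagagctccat
Ins1, chr19:52264047-52264296, plus strand: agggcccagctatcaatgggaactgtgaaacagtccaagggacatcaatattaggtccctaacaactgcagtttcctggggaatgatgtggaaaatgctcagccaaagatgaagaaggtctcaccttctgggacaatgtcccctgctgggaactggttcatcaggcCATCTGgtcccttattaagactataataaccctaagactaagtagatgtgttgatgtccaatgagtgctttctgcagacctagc
TGACGTCA was found 1 time in the *Sst* window and in 1.55% of 32851 RefSeq promoter windows, and CATCTG was found 1 time in the *Ins1* window and in 14.4% of them. These matches describe the letters only, since no binding was measured.

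The double barcodes carried nearly as many somatostatin UMIs as a delta cell droplet and fewer insulin UMIs than a beta cell droplet. *Sst* UMIs per double barcode ran from 54.1 (5th percentile) through a median of 139 to 310 (95th percentile). Single delta barcodes had a median of 152 *Sst* UMIs and single beta barcodes a median of 0. *Ins2* UMIs per double barcode ran from 402 through a median of 1308.5 to 3172, against medians of 2327 in single beta and 58 in single delta barcodes. Thus *Sst* per barcode overlapped with single delta barcodes over most of its range, while *Ins2* sat between both single classes. In shares of all UMIs, *Ins2* had a median of 38.2% and *Sst* of 3.75% in double barcodes, and *Gcg* had a median of 3 UMIs in double, single beta and single delta barcodes alike.

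**Figure D1:**
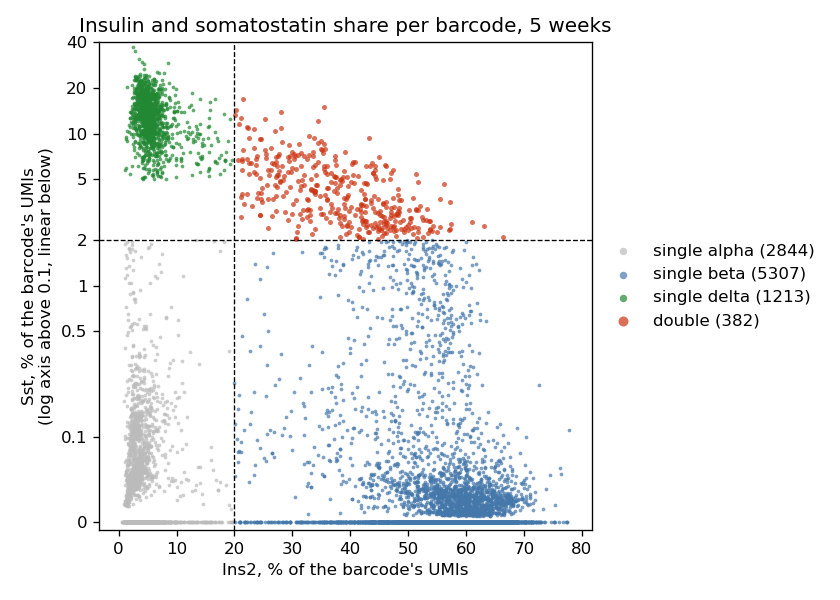
Share of UMIs from Ins2 (x axis, %) and from Sst (y axis, %, log above 0.1 and linear below) in barcodes of the 5-week library, 1 point per barcode. Dashed lines mark 20% Ins2 and 2% Sst; the 382 double barcodes fill the upper right field, and the points thin out without a gap toward the single beta barcodes below and the single delta barcodes to the left.

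The limits of the rule cut through a continuous range. Just outside it, 79 barcodes with *Ins2* at 20% or more had *Sst* between 1.5% and 2%, and just inside it 66 barcodes had *Sst* between 2% and 2.5%. Likewise 45 barcodes had *Ins2* between 15% and 20% and 41 between 20% and 25%. Few barcodes lay near the third limit, with 4 at 3% to 5% *Gcg* and 13 at 5% to 10%. Because the rule uses shares, it depends on depth: the 152 *Sst* UMIs of a median delta barcode make up 2% of 7600 UMIs, and 1166 single beta barcodes (22.0%) held more UMIs than that.

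Total UMIs per double barcode ran from 1399.6 through a median of 3461 to 6597. Single beta barcodes had a median of 3902 UMIs with a wider range, from 1147 to 11644 between the 5th and 95th percentiles, and single delta barcodes had a median of 1138. The mean of a double barcode, 3706 UMIs, was below the 6279 UMIs that the means of 1 single beta (5008) and 1 single delta barcode (1271) add up to. This gap is partly built in. With the 152 *Sst* UMIs of a median delta barcode, a barcode above 7600 UMIs falls short of the *Sst* limit. Double barcodes held a median of 1001.5 detected genes, more than single beta (792) or single delta barcodes (548). With every barcode thinned to 1000 UMIs, the median was 372 genes in 376 double barcodes, between 264 in 5106 single beta and 495 in 873 single delta barcodes, with 6, 201 and 340 shallower barcodes left out. Mitochondrial genes made up a median of 3.28% of UMIs in double, 3.16% in single beta and 2.85% in single delta barcodes.

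**Figure D2:**
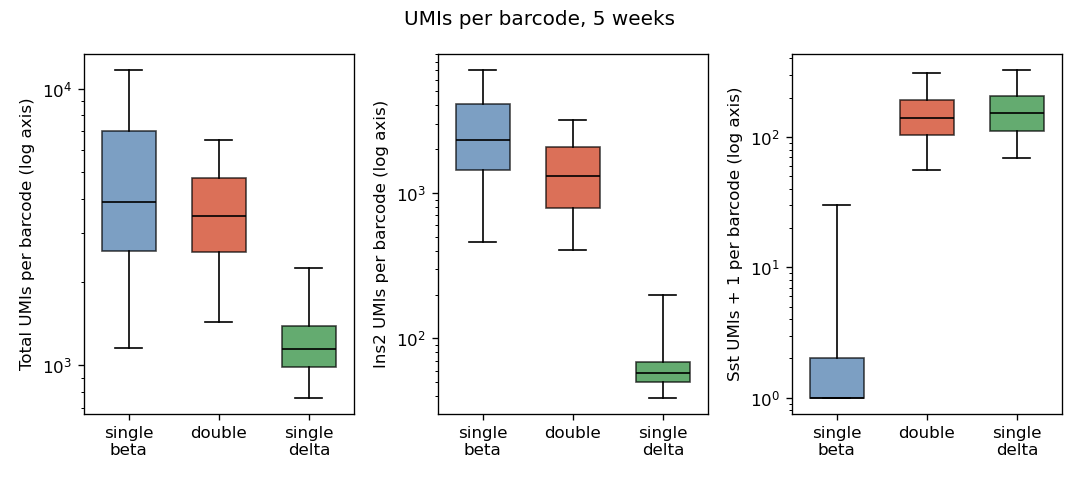
UMIs per barcode (log axes) in total, of Ins2 and of Sst (1 added), for 5307 single beta, 382 double and 1213 single delta barcodes. Boxes span the quartiles with the median as a line, and whiskers end at the 5th and 95th percentiles; the median of Sst is 139 UMIs in double and 152 in single delta barcodes, while Ins2 has medians of 1308.5 in double and 2327 in single beta barcodes.

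Delta genes that the rule did not use came with somatostatin. *Rbp4* UMIs per double barcode ran from 1 through a median of 7 to 23, and in single delta barcodes from 1 through 7 to 20. Its median in single beta barcodes was 0. *Pyy*, which encodes peptide YY, had medians of 48.5 UMIs in double, 47 in single delta and 0 in single beta barcodes, and *Ppy* had medians of 19.5, 21 and 0. Per droplet, these 3 transcripts were thus at about the number found in a single delta barcode. Of the 382 double barcodes, 372 held an *Rbp4* UMI, 215 held *Fam159b*, 129 held *Ly6h* and 105 held *Hhex*.

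After thinning to 1000 UMIs, *Rbp4* was found in 83.8% (79.7 to 87.4) of double, 97.6% (96.3 to 98.5) of single delta and 5.42% (4.82 to 6.08) of single beta barcodes, against 97.4%, 98.5% and 14.02% before thinning. *Rbp4* is not a marker of delta cells alone here, since 58.0% of thinned single alpha barcodes held it too. *Hhex* was found in 9.57% (6.80 to 13.01) of double, 24.97% of single delta, 0.333% of single beta and 0.269% of single alpha barcodes. The double barcodes thus sat between the delta and beta classes for both genes. As a measure of free RNA in droplets, 228 barcodes with UMIs of at least 3 endothelial genes (median 1218 UMIs) had a median of 0 *Sst* UMIs and a 95th percentile of 2, and 5.70% of them held *Rbp4*.

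Beta genes came along too. *Ins1* UMIs per double barcode ran from 5 through a median of 34.5 to 145.9, against medians of 78 in single beta and 2 in single delta barcodes. *Iapp*, which encodes the co-secreted islet amyloid polypeptide, had medians of 135.5, 211 and 43 UMIs in the same order. *Mafa*, a transcription factor of mature beta cells, was found after thinning in 11.2% (8.17 to 14.8) of double, 18.7% (17.6 to 19.8) of single beta and 2.63% of single delta barcodes. *Ero1lb*, an oxidoreductase for folding insulin in the endoplasmic reticulum (ER), was found in 21.8%, 28.0% and 4.35%. Here too the double barcodes lay between both single classes.

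To weigh all genes together, the share of delta RNA was fitted as the delta weight of a mix, the percentage of UMIs that come from the single delta profile while the rest come from the single beta profile. The fit used 580 genes at least 4-fold apart between single delta and single beta barcodes, 509 higher in delta (delta-higher) and 71 higher in beta (beta-higher), and left out *Ins2*, *Sst* and *Gcg*. The delta weight was 34.6% (34.3 to 34.9). The hormones of the rule, fitted alone, gave 35.0% from *Ins2* and 31.5% from *Sst*. Delta-higher genes alone gave 33.9% (33.6 to 34.1), and beta-higher genes alone 43.8% (42.9 to 44.7), where *Ins1* held 91.0% of the UMIs, and 38.4% without *Ins1*. The estimates from different genes thus differed by more than their counting intervals. When single alpha barcodes were allowed as a further part of the mix, they took a weight that rounded to 0%. The delta weight was then 34.64%. The rule had already left out barcodes with much *Gcg*, so a low alpha weight is partly built in. The fit genes were also chosen to separate delta from beta barcodes only, without regard to alpha barcodes.

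At that weight, a double barcode of 3706 UMIs held a delta part of 1282 UMIs and a beta part of 2423 UMIs. The mean single delta barcode held 1271 UMIs and the mean single beta barcode 5008. Because the *Sst* limit leaves out deep barcodes, a beta part below the single beta mean is partly built in. The delta part moved with the weight, to 1169 UMIs at the weight from *Sst* alone and 1622 at that from beta-higher genes.

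The genes of both cell types were counted in the same barcodes and not only in their sum. Each barcode was chosen by *Ins2* and *Sst* together, so this is partly built in. Delta-higher genes made up a median of 7.02% of UMIs in double barcodes (5th to 95th percentile 4.07 to 11.7), against 1.42% in single beta and 17.4% in single delta barcodes. Beta-higher genes made up a median of 1.11% in double barcodes (0.314 to 3.57), against 2.04% in single beta and 0.203% in single delta barcodes. *Ins1* held 91.0% of the beta-higher UMIs in single beta barcodes, so the beta-higher share there is mostly *Ins1*. Of the 382 barcodes, 368 had a delta-higher share above the 95th percentile of single beta barcodes (3.66%), 317 had a beta-higher share above the 95th percentile of single delta barcodes (0.562%), and 303 were above both. Single alpha barcodes had a median delta-higher share of 7.75% (5.15 to 14.8), below single delta but near the double barcodes. A share at the level of the double barcodes thus does not by itself tell delta RNA from alpha RNA.

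**Figure D3:**
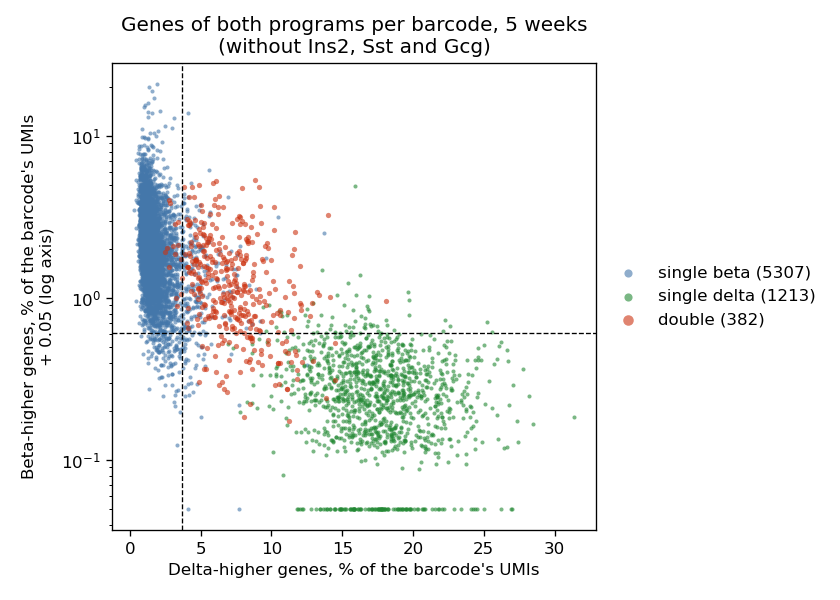
Share of UMIs in 509 delta-higher genes (x axis, %) and in 71 beta-higher genes (y axis, %, 0.05 added, log axis), without Ins2, Sst and Gcg, 1 point per barcode. Ins1 holds 91.0% of the beta-higher UMIs in single beta barcodes. Dashed lines mark the 95th percentile of single beta barcodes on the x axis (3.66%) and of single delta barcodes on the y axis (0.562%); 303 of the 382 double barcodes lie in the upper right field, between both single classes.

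The double barcodes were also split into groups by *Sst* share. The rule used this share, and in a mix it rises with the delta weight, so the trends along it are descriptions only. The 127 with the lowest *Sst* share (2.03% to 3.03%) had a delta weight of 25.2% (24.9 to 25.6), the 127 in the middle 34.5% (34.1 to 35.0) and the 128 with the highest share (5.05% to 17.0%) 46.7% (46.2 to 47.3). The other delta genes went the same way: *Rbp4* stood at 1802, 2409 and 3406 CPM and *Pyy* at 11673, 15553 and 25092 CPM in that order. *Hhex* stood at 73.1, 94.7 and 93.4 CPM, with no step between the middle and the highest group. *Ins1* went the other way, at 15476, 12696 and 12418 CPM. Depth fell along the same order, with a median of 4105, 3533 and 2931 UMIs per barcode. Over the 382 barcodes, the *Sst* share and the delta-higher share had a Pearson correlation of 0.56 and a Spearman correlation of 0.60, where both share the barcode's total as denominator. *Sst* UMIs and *Ins2* UMIs of a barcode had correlations of 0.28 and 0.32, where both grow with its depth. A *Ppy* share of 2% or more was reached by 40 double barcodes (10.5%, 7.59 to 13.99), 567 single delta barcodes (46.7%) and 8 single beta barcodes (0.151%).

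Nearly all genes stood in the double barcodes where the mix put them. With at least 20 UMIs observed in the double barcodes or expected from the mix, 5376 genes were measured. Of these 11 were 2-fold or more above the mix (0.205%) and 10 were 2-fold or more below it (0.186%), 0.391% in both directions together. The median log2 ratio of observed to expected UMIs was 0.06, with a 5th percentile of -0.39 and a 95th percentile of 0.52, and 91.4% of genes lay within 0.5 of 0. Among 489 genes with 200 or more UMIs the same percentiles were -0.16 and 0.25, and 2 genes were past 2-fold. With 1 CPM added to each level, 13 genes were past 2-fold from the mix, whereas 774 were past 2-fold from single beta and 740 from single delta barcodes. Log2 CPM of double barcodes had a Pearson correlation across genes of 0.98 with the mix, 0.92 with single beta and 0.93 with single delta barcodes. Genes are not independent replicates, and the mix was fitted to some of these genes.

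**Figure D4:**
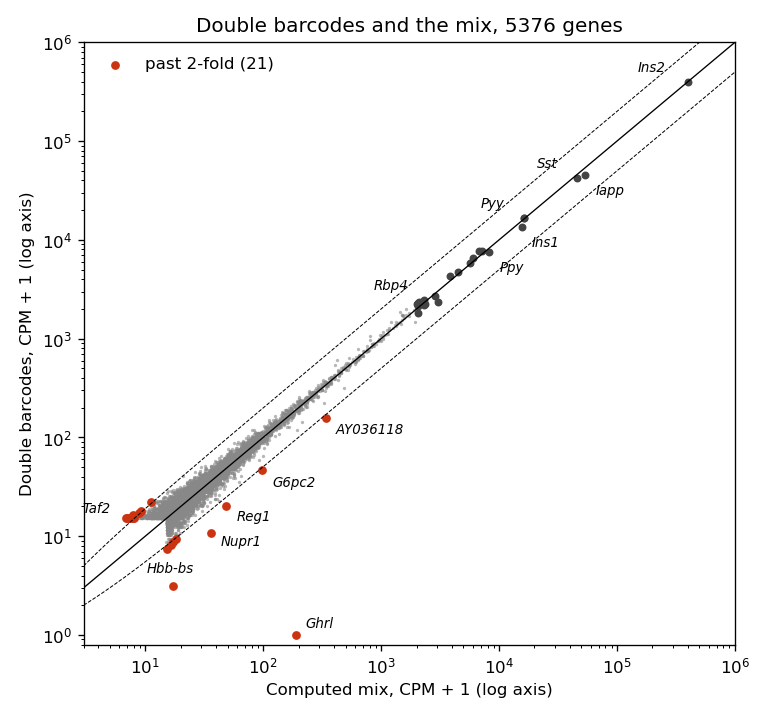
Level of each of 5376 genes in the computed mix (x axis) and in the double barcodes (y axis), in CPM with 1 added, on log axes. The full line marks equal levels, dashed lines mark 2-fold, the most abundant genes are drawn larger and darker, and red points are the 21 genes past 2-fold, of which Ghrl, with 0 UMIs in double barcodes, lies farthest from the line.

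Of the delta marker list, 7 of 8 genes were measured and none was past 2-fold from the mix. The median log2 ratio was -0.08, against 0.06 over all measured genes. The list holds *Sst*, which chose the barcodes, and genes such as *Rbp4* that helped to set the delta weight. A level near the mix is thus partly built in. *Sst* had 59793 UMIs summed over the double barcodes and 65473 expected (log2 -0.13), and *Rbp4* had 3492 and 3246 (0.11, interval 0.05 to 0.16). *Hhex* had 122 UMIs and 151 expected (-0.31, -0.61 to -0.02), *Fam159b* 389 and 395 (-0.02, -0.19 to 0.14) and *Tspan8*, which encodes a tetraspanin of the cell surface, 147 and 155 (-0.08, -0.35 to 0.19). The matrix proteoglycan gene *Spock3* was highest of the list, with 24 UMIs and 14.4 expected (0.73, -0.04 to 1.47), and the receptor phosphatase gene *Ptprz1* had 38 and 41.6. *Ghsr*, the ghrelin receptor, had 8 UMIs and was not measured. *Pyy* had 23829 UMIs and 23007 expected (0.05, 0.03 to 0.07) and *Ppy* 10760 and 11691 (-0.12, -0.15 to -0.09). Among other delta-higher genes with many UMIs, *Gnas*, the stimulatory G protein subunit, stood at -0.02 and the secretory granule gene *Resp18* at -0.06.

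Of the beta marker list, 15 of 19 genes were measured and 18 were in the table. Of these 1 was past 2-fold, below the mix, and the median log2 ratio was -0.05. Here too the list holds a gene of the rule, *Ins2*, and genes such as *Ins1* that helped to set the weight. *Ins2* had 565166 UMIs and 568085 expected (log2 -0.01). *Ins1* had 19341 UMIs and 22185 expected (-0.20, -0.22 to -0.18) and *Iapp* 64301 and 76382 (-0.25, -0.26 to -0.24), so that both were somewhat below the mix, beyond counting error. *Hadh* and *Ero1lb* stood at 0.01 and *Ppp1r1a*, a phosphatase inhibitor, at -0.03 on the log2 scale. The transcription factors *Mafa* (186 UMIs, 210 expected; -0.17, -0.39 to 0.04) and *Nkx6-1* (205 and 180.5; 0.18, -0.03 to 0.39) had intervals that held 0, as did those of *Slc30a8* (47 and 57.5), the zinc transporter of insulin granules, *Papss2* (54 and 59.4), *Sytl4* (59 and 61.2), *Prss53* (26 and 30.6) and *Nnat* (67 and 65.6). The same held for *Pdx1* (132 and 118, log2 0.16, -0.12 to 0.42), the pancreatic homeobox factor. Some genes of the list were not higher in beta cells here. *Nnat* stood at 2.22 CPM in single beta and 130 CPM in single delta barcodes, and *Hadh* at 218 and 276 CPM. *Ppp1r1a* stood at 182 and 132 CPM, so these genes do not stand for beta RNA alone. The mature beta cell gene *Ucn3* (4 UMIs), the glucose transporter gene *Slc2a2* (2) and *Trpm5* (2) were below the minimum.

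**Figure D5:**
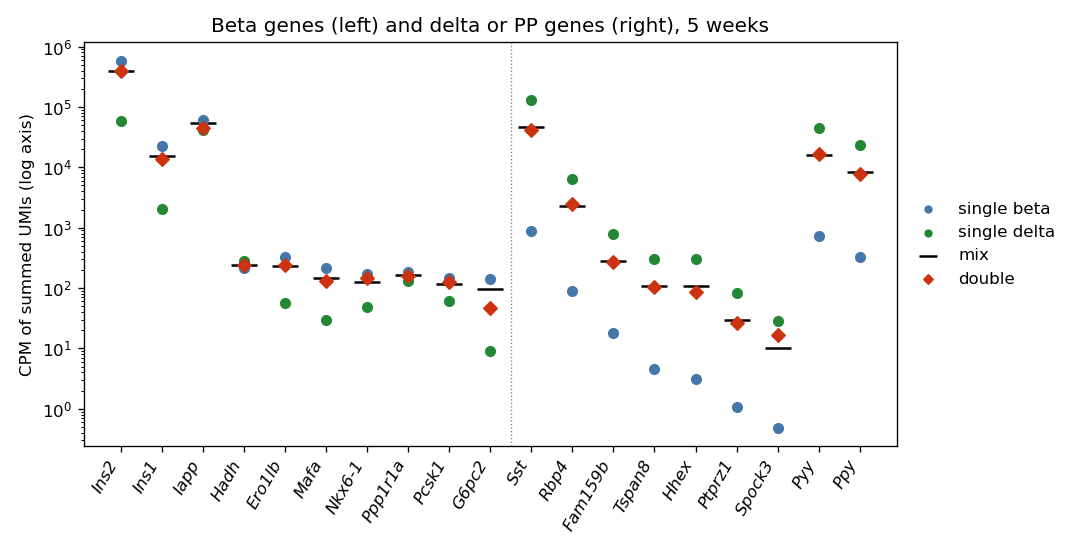
CPM of summed UMIs (log axis) for beta list genes (left of the dotted line) and for delta list genes with Pyy and Ppy (right), in single beta, single delta and double barcodes and in the computed mix (black bar). The diamonds of the double barcodes lie on or near the bar for each gene except G6pc2, which is past 2-fold below it, and Spock3, whose 24 UMIs leave an interval that holds the bar.

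The beta gene past 2-fold was *G6pc2*, the islet glucose-6-phosphatase catalytic subunit (chromosome 2, from 69211073 to 69227993). It stood at 45.9 CPM in double barcodes, 143 CPM in single beta, 9.08 CPM in single delta barcodes and 96.8 CPM in the mix. Its 65 UMIs against 137 expected gave a log2 ratio of -1.08 (-1.45 to -0.72). After thinning it was found in 3.72% (2.05 to 6.17) of double, 10.8% (9.95 to 11.7) of single beta and 0.916% of single delta barcodes. *G6pc2* moved with depth among single beta barcodes, but not in a single direction. It rose from 87.8 CPM in barcodes of 1000 to 2000 UMIs to 180 CPM in those of 8000 or more. *G6pc2* stood highest, at 219 CPM, in the 201 barcodes below 1000 UMIs. Against a mix built from the 2521 single beta barcodes of 1000 to 4000 UMIs, a range near the beta part of a double barcode, its log2 ratio was -0.54 (-0.93 to -0.17). It was then no longer past 2-fold. *Spc25*, the neighbouring gene (from 69193895 to 69206213), which encodes a kinetochore protein, was likewise higher in single beta (335 CPM) than in single delta barcodes (38.9 CPM). It had 284 UMIs and 329 expected (-0.21, -0.39 to -0.04) and -0.22 with the shallower beta barcodes.

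*Ins1* and *Iapp* also moved with the depth of single beta barcodes. *Ins1* went from 13404 CPM at 1000 to 2000 UMIs to 24693 CPM at 8000 or more, and *Iapp* from 44265 to 69708 CPM. With the beta barcodes of 1000 to 4000 UMIs in the mix their log2 ratios were 0.10 (0.08 to 0.12) and -0.03 (-0.04 to -0.02), so the direction for *Ins1* turned.

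The largest gap of all was *Ghrl*, the gene of ghrelin, the hormone of epsilon cells (chromosome 6, from 113716119 to 113719911). The mix expected 267 UMIs and the double barcodes held 0, at least 88.9-fold lower when a count of 0 is taken to allow 3. Of the 839 *Ghrl* UMIs in single delta barcodes, 837 came from 1 barcode of 5236 UMIs, in which *Ghrl* made up 16.0% and *Sst* 9.22% of UMIs. Without that barcode the mix expected 0.744 UMIs. The gap thus rested on 1 barcode of the single delta class.

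Of the other genes below the mix, *AY036118* had 223 UMIs and 478 expected (log2 -1.10, -1.31 to -0.90), and it held about as many UMIs per droplet in double (0.584) as in single beta barcodes (0.604), fewer than in single delta barcodes (0.951). *Reg1*, a secreted protein of acinar cells, had 27 UMIs and 67.6 expected (-1.32, -1.95 to -0.75). *Nupr1*, a stress-induced chromatin protein, had 14 UMIs and 49.5 expected (-1.82, -2.70 to -1.06), and at most 24 of its 1103 UMIs in single beta barcodes came from 1 barcode. The haemoglobin gene *Hbb-bs* had 3 UMIs and 22.9 expected, with 262 of the 540 UMIs of the single beta class in 1 barcode. *Rem2* (11 UMIs, 22.7 expected), *Ascc1* and *Herc4* were also below, with 9 to 12 UMIs and log2 ratios from -1.03 to -1.16. Like *Nupr1* and *Hbb-bs*, they passed the minimum of 20 through their expected counts alone. Of genes with 50 or more UMIs observed or expected, the next lowest were *Ufsp2* (-0.92), the acinar genes *Cela3b* (-0.81) and *Sycn* (-0.80), *Dio1* (-0.76), *Prpf38b* (-0.76) and *Maged2* (-0.71).

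The 11 genes above the mix had few UMIs, and those named here were chosen after their values were seen. Each held between 20 and 30 UMIs in the double barcodes, with 8.31 to 14.5 expected, so that each passed the minimum of 20 through its observed count alone. Their log2 ratios ran from 1.01 (*Chmp6*, of the membrane-remodelling ESCRT machinery) to 1.27. The highest was *Taf2*, a TFIID subunit like Taf4, with 20 UMIs and 8.31 expected (1.27, 0.43 to 2.06). *Zfp746* had 22 UMIs and 9.76 expected (1.17, 0.38 to 1.93), and *Med20*, a subunit of the Mediator complex, had 23 and 11.02 (1.06, 0.33 to 1.74). With a minimum of 50 UMIs no gene was 2-fold above the mix, and the highest was *Abhd14a* with 56 UMIs and 28.5 expected (0.98, 0.51 to 1.43). The mitochondrial ribosome gene *Mrps6* followed with 70 and 40.4 (0.79, 0.38 to 1.19). The next 8, from 0.78 down to 0.63, were *Aaed1*, *Nsrp1*, *Bcl7c*, *Hdgfl3*, *Atp6v1h*, *Zbtb7a*, *Ing4* and *Fam102a*, with 50 to 71 UMIs each.

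The TFIID list had 9 measured genes, 8 of them above 0 and 1 past 2-fold (*Taf2*), with a median log2 ratio of 0.28, against 0.06 over all genes. *Taf10* had 168 UMIs and 166 expected (0.01, -0.23 to 0.25), *Taf1* 38 and 25.4 (0.58, 0.03 to 1.10) and *Taf7* 33 and 26.0 (0.34, -0.25 to 0.90). *Taf4* itself was below the minimum, with 8 UMIs and 5.11 expected. With single beta barcodes of 1000 to 4000 UMIs the list's median was 0.16.

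The AP-1 and immediate early list holds genes that cells switch on within minutes of stimulation or of dissociation. All 11 measured genes of it were above 0 and none was past 2-fold. Their median log2 ratio was 0.24, against 0.06 over all measured genes. *Fos* had 2625 UMIs and 2043 expected (0.36, 0.30 to 0.42), *Jund* 2430 and 2109 (0.20, 0.14 to 0.27) and *Jun* 2784 and 2700.4 (0.04, -0.02 to 0.10). *Fos* was higher in shallower single beta barcodes, at 1971 CPM below 1000 UMIs, 2563 CPM for 1000 to 2000 UMIs and 1086 CPM for 8000 or more. With the beta barcodes of 1000 to 4000 UMIs in the mix, the list's median was 0.07 and *Fos* stood at 0.07 (0.01 to 0.13).

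The ER stress and integrated stress response list had 19 measured genes, none past 2-fold, with a median log2 ratio of 0.04. The chaperone gene *Hspa5* had 2083 UMIs and 1731 expected (0.27, 0.20 to 0.33), but stood at -0.04 (-0.11 to 0.03) with the shallower beta barcodes, so that its direction depended on which beta barcodes entered. None of 10 heat shock chaperone genes was past 2-fold, at a median of -0.01. *Hspb1* stood at -0.06 and *Hspa1b* at -0.03. *Hspa1a* had 3828 UMIs and 4060 expected (-0.08, -0.14 to -0.03), with 894 CPM in single beta and 6599 CPM in single delta barcodes.

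The secretory and housekeeping lists held no gene past 2-fold. Medians of the log2 ratio were -0.02 over 10 genes for granins and prohormone processing, 0.03 over 11 for vesicle exocytosis, 0.00 over 84 for ribosomal proteins, 0.00 over 81 for nuclear oxidative phosphorylation genes and 0.06 over 13 for the mitochondrial genome. The last of these was -0.10 with single beta barcodes of 1000 to 4000 UMIs. *Rab3a*, a small GTPase of secretory vesicles, was highest among the exocytosis genes, with 139 UMIs and 99.3 expected (0.49, 0.21 to 0.76). The prohormone convertase gene *Pcsk1* had 181 UMIs and 164 expected (0.14, -0.08 to 0.36). *Chga* and *Chgb*, which encode chromogranins of the hormone granules, stood at 0.06 and -0.07. The metallothionein *Mt1* had 1360 UMIs and 1133 expected (0.26, 0.18 to 0.34), and stood at 0.03 with the shallower beta barcodes.

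Adhesion genes, which join neighbouring islet cells, had 9 measured members, 6 above 0 and none past 2-fold. Their median log2 ratio was 0.14, against 0.06 over all measured genes. *Cdh2* (N-cadherin) had 111 UMIs and 93.3 expected (0.25, -0.07 to 0.56) and *Epcam* 404 and 385 (0.07, -0.09 to 0.23). Of the hormone and nutrient receptors 3 were measured, at a median of 0.01, with *Adra2a*, the adrenergic receptor that restrains insulin release, at 37 UMIs and 32.3 expected (0.20, -0.34 to 0.69).

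Genes of immature or dividing cells had few UMIs. *Neurog3*, the endocrine progenitor factor, had 21 UMIs and 24.6 expected (log2 -0.23, -0.99 to 0.48), at 48.0 CPM in single delta and 1.13 CPM in single beta barcodes. It was the only progenitor gene measured of 7. *Sox9* had 3 UMIs and 2.40 expected and *Gast* 3 and 2.57. No cell cycle gene of 18 reached the minimum, and together they had 51 UMIs and 57.9 expected. The highest among them were *Pcna* (18 UMIs, 15.8 expected) and *Mcm4* (10 and 7.68). *Mki67* had 0 UMIs in the 382 barcodes and *Top2a* had 1. Islet transcription factors had a median of 0.00 over 13 measured genes, with *Isl1* at 315 UMIs and 293 expected and *Pax6* at 168 and 156.

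Summed over each list, the markers of other cells named here had fewer UMIs than the mix expected. Of the alpha list 7 genes were measured, 3 above 0 and 4 below, at a median log2 ratio of -0.12. The list holds *Gcg*, which the rule limited. *Etv1* (120 UMIs, 114 expected) and *Tmem27* (181 and 178) stood near the mix. *Ttr*, a thyroid hormone carrier abundant in alpha cells, had 452 UMIs and 686 expected (-0.60, -0.74 to -0.47), and -0.21 with the shallower beta barcodes. The 11 endothelial genes in the table had 23 UMIs and 64.3 expected, macrophage genes 34 and 47.4, mesenchymal genes 2 and 3.44, T or B cell genes 4 and 5.59 and haemoglobin genes 4 and 32.2. Most macrophage UMIs, 32, were of *C1qa* (39.7 expected), and 10 of the 12 macrophage genes, 4 of 11 endothelial, 7 of 8 mesenchymal, 3 of 4 T or B cell and 2 of 4 haemoglobin genes were at 0. The mix itself expected few UMIs of some of these genes, such as 0.31 of *C1qb* and 0.35 of *Ptprc*. For ductal genes the sums were 748 and 796 UMIs, near the mix. Counted per droplet, ductal genes held 1.96 UMIs in double, 1.61 in single beta and 1.29 in single delta barcodes.

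Acinar genes, which encode digestive enzymes, were low against the mix. Of these 10 were measured, 9 below 0 and none past 2-fold, at a median log2 ratio of -0.57, against 0.06 over all measured genes. Their sum was 1309 UMIs and 1888 expected. *Prss2* had 167 UMIs and 272 expected (-0.70, -0.95 to -0.47) and *Ctrb1* 316 and 463 (-0.55, -0.73 to -0.38). Counted per droplet the list held 3.43 UMIs in double, 2.89 in single beta and 3.51 in single delta barcodes, about the same number in droplets of very different depth. *Ctrb1* was lower in deeper single beta barcodes, from 429 CPM at 1000 to 2000 UMIs to 54.0 CPM at 8000 or more.

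Other barcodes with hormones of more than 1 class were present in the same library: 403 held *Ins2* and *Gcg* (3.59%), 162 *Gcg* and *Sst* (1.44%) and 37 *Ins2*, *Sst* and *Gcg* (0.330%). Scrublet, which scores a barcode by its likeness to simulated pairs of barcodes, marked 0 of 11229 barcodes and has not worked here as a caller, so no barcode was removed. Its median score was 0.142 for the double barcodes, 0.063 for single beta, 0.046 for single delta and 0.235 for *Ins2* and *Gcg* barcodes. Among the highest 8% of scores were 77 double barcodes (20.2%), 221 *Ins2* and *Gcg* barcodes (54.8%), 4.1% of single beta and 2.9% of single delta barcodes. Whether 1 or more cells lay behind each double barcode was not tested.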

How the data were processed

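Islet cells were captured with the 10X Genomics Chromium 3′ assay. The deposited values are raw UMI counts per gene and barcode: the authors aligned reads to mm10 and counted UMIs with Cell Ranger, and the submitters' processing notes name Cell Ranger 3.1, bcl2fastq 2.17.1.14 and Seurat 3.1.4. Only from the wild type library did the authors remove cells with high levels of more than 1 hormone and doublets, and they scaled it to 12000 cells. The libraries held 19472212, 23131247 and 39408284 UMIs (wild type, 1 week, 5 weeks), and the 5-week table lists 15959 genes.

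All barcodes were kept. The 5-week library's UMIs were summed per class. The delta weight maximised the Poisson likelihood over genes at least 4-fold apart with 50 or more UMIs in the higher class. Its interval was a likelihood-ratio interval, which is approximate. Observed and expected UMIs were compared per gene with conditional intervals, in which the mix stood as a Poisson count of the same relative error. Shares carry exact Clopper-Pearson intervals. A count of 0 was taken to allow 3 counts. No test was made, since members come from 1 library of pooled mice. The method was tested on simulated data.

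Python 3.11.15, numpy 2.4.6, scipy 1.17.1, pandas 2.3.3, scanpy 1.11.5 (Scrublet, expected share 8%, 12 components) and matplotlib 3.10.9 were used. Sequences are from RefSeq. Members and lists were chosen with earlier results of these data known. Named genes were drawn from all members of the beta and delta lists, up to 4 genes of every other list with most UMIs or past 2-fold, the 10 highest and 10 lowest log2 ratios among genes with 50 or more UMIs, the 10 delta-higher fit genes with most UMIs, and *Taf4*. Genes past 2-fold with fewer UMIs, *Spc25*, *Ly6h*, *Pdx1*, *Neurog3*, *Mki67* and *Top2a* were added after their values were seen. 1 of the genes past 2-fold is not reported here by name.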

Additional observations from a re-analysis of the deposited data

How the results depend on the processing

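The number of double barcodes was 129 with *Sst* at 5% or more, and between 290 and 544 under the other limits tried. The delta weight was 31.5% from *Sst* alone, 36.0% from all genes but the hormones of the rule, 20.2% when set by the mean UMIs of a single delta and a single beta barcode, 36.1% when each barcode counted equally, 46.6% with *Sst* at 5% or more and 32.8% with stricter single classes. In alternatives chosen after seeing the data it was 35.0% from *Ins2* alone, 33.9% from delta-higher and 43.8% from beta-higher genes, and 33.8% with single beta barcodes of 1000 to 4000 UMIs. Genes 2-fold above and below the mix numbered 50 and 5 with the weight from mean UMIs, 24 and 17 with barcodes counted equally, 0 and 4 with a minimum of 50 UMIs, 369 and 443 with none, and 5 and 16 with the single beta barcodes of 1000 to 4000 UMIs. Genes above numbered 7 under limits on detected genes and mitochondrial UMIs, 1 with *Sst* at 5% or more and 22 with stricter single classes. With the weight from mean UMIs the median log2 ratio of the delta list was 0.65 and that of the acinar list -0.17, and the acinar list stood at -0.90 with single beta barcodes of 1000 to 4000 UMIs.

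Among genes past 2-fold the direction turned for *Ghrl* under limits on detected genes (2.12, where the expected count was itself below the floor of 3, so that no fold can be read) and, with *Sst* at 5% or more, for *Cep89* (-0.020) and *Chmp6* (-0.063). Among named genes within 2-fold the sign changed for *Ins1* (0.10 with single beta barcodes of 1000 to 4000 UMIs), *Hhex* (0.43) and *Ppy* (0.61) with the weight from mean UMIs, *Ppy* (0.0085) with the weight from *Sst*, and *Pyy* (-0.0048 with the weight from all genes, -0.018 with stricter single classes). Of 405 values of named genes under alternatives, 355 stayed within the counting interval of the reported value, and the others left it or turned. Of 172 list medians 141 stayed within the typical interval of a list's members and 31 did not. The causes were not tested. Depth limits genes near 20 UMIs, whose intervals span more than 2-fold. No paired analysis was possible because each condition is 1 library and no result comes from a test.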
